A study of Sinocyclocheilus angustiporus and Sinocyclocheilus anophthalmus with 4 samples.

Results

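Cadherins, claudins and the proteins of desmosomes, tight junctions and adherens junctions were compared between whole eyes of 2 species of Sinocyclocheilus, a carp-like freshwater genus. They were taken as every row of the eye tables whose gene name holds a word of the junction vocabulary: cadherin, claudin, catenin, desmoplakin, desmoglein, desmocollin, plakophilin, plakoglobin, periplakin, envoplakin, tight junction, occludin or epithelial cell adhesion. This gave 64 of 9649 rows. No row was named envoplakin. The surface group was an adult Sinocyclocheilus angustiporus eye library and the cave group an adult Sinocyclocheilus anophthalmus eye library, with no treatment named, and 1 library stood for each. Each species was sampled as 2 individuals, and whether these were pooled is not stated in the labels. The brain libraries of the series were not analysed here. Because each species had a single eye library, the differences below are descriptions without a test or an error. The labels name different sequencing instruments without saying which library ran on which, so species and instrument cannot be told apart.

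Cells of an epithelium are held together by a belt of junctions. Claudins and occludin form the strands of the tight junction and are tied to actin by the zonula occludens scaffolds. Classical cadherins build the adherens junction and hold actin through catenins, while desmoglein and desmocollin, the cadherins of the desmosome, hold keratin filaments through plakoglobin, plakophilins and desmoplakin. The cornea, conjunctiva and skin at the front of an eye are rich in desmosomes. The retina and lens rely instead on N-cadherin and other classical cadherins, neurons on protocadherins, and photoreceptors on a cadherin of their own, CDHR1, at the base of the outer segment.

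The authors deposited RPKM values (read numbers divided by transcript length and by the mapped total), so levels of different genes share a scale. Read numbers are unknown, and no counting interval is given. Both libraries carried defining transcripts of an eye, with rhodopsin at 14606 and 4884 RPKM and lens crystallins summing to 11153 and 13882 RPKM, surface fish first, as in every pair of values below. The comparison of the eyes is the log2 ratio of cavefish RPKM + 1 to surface fish RPKM + 1, and 2-fold means a log2 ratio of 1 or -1 at least. Over all 9649 rows its median was -0.27, a shift towards the surface fish that also sits in the ratios below. With ratios centred on that median a further 0.27 is added to each ratio. Every row of the tables reached 5 RPKM in at least 1 eye. A member with less than 5 RPKM in an eye is therefore present through the other eye alone, and junction genes low in both eyes are not described.

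Most epithelial junction genes were lower in the cavefish eye, and most neural ones were not. From textbook knowledge of their names, 20 rows were placed in an epithelial class, 25 in a neural class and 15 in a widespread class, and 4 belonged to endothelium, mesenchyme or other cells. Of the 20 epithelial rows 16 were lower by 2-fold or more and none was higher by as much, against 10.1% of all rows lower and 3.83% higher. Past 4-fold, 8 epithelial rows were lower and none was higher, against 1.29% and 0.601% of all rows. Their median log2 ratio was -1.76, or -1.49 after centring. Of the 25 neural rows 2 were lower and 2 were higher by 2-fold, with a median of 0.30, or 0.57 after centring. After centring, 15 epithelial and 2 neural rows were lower by 2-fold, against 5.55% of all rows, and no epithelial but 5 neural rows were higher, against 6.71%. The widespread class had 1 row lower and none higher, with a median of 0.04. The epithelial median minus the neural median was -2.06 on the log2 scale, a distance that a common shift of all rows cannot change.

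The class ranges overlapped. Epithelial ratios ran from -3.88 to 0.53 and neural ratios from -1.64 to 1.73. Of the epithelial rows 12 lay below the lowest neural row, and 8 neural rows lay above the highest epithelial one. The share of all rows beyond these limits was not computed, so no conclusion is drawn from these counts. The floor of the tables bears on these counts, since 12 of the 20 epithelial rows were under 5 RPKM in the cavefish eye and so came in through the surface fish eye, and 6 of the neural rows came in through the cavefish eye. Among rows at 5 RPKM or more in both eyes, 5 of 8 epithelial rows were 2-fold lower, with a median of -1.26. Of the 18 neural rows there, 2 were lower and 1 was higher, with a median of 0.23. Of all 7719 such rows, 8.77% were lower and 2.32% were higher.

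**Figure D1:**
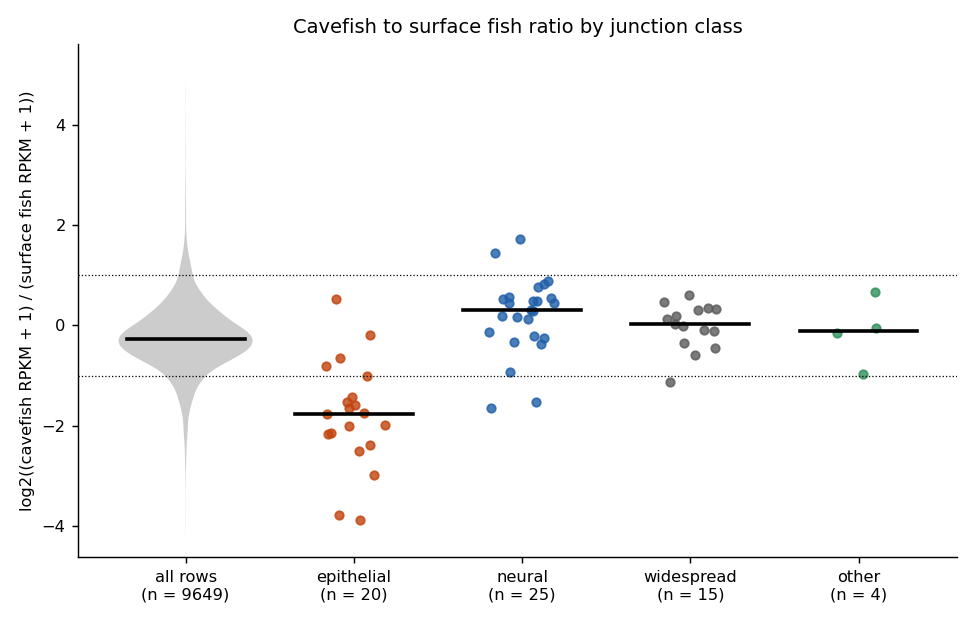
Log2 ratio of cavefish to surface fish eye for all rows (grey shape) and for each junction row (points), by class; black bars are medians and dotted lines mark 2-fold. The epithelial median of -1.76 lies below the median of all rows, -0.27, while the neural median is 0.30.

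The plot of ratios by class shows that the epithelial rows spread downwards from the all-row median and that the neural rows sit mostly above it, with 20 of 25 neural rows and 2 of 20 epithelial rows above -0.27. In each eye taken alone, the make-up of the junction transcripts differed in the same sense. The epithelial rows held 43.4% of the RPKM summed over the 64 rows in the surface fish (619.6 of 1427 RPKM) but 18.8% in the cavefish (180.4 of 961.8 RPKM). The neural rows held 34.9% (498.15 RPKM) and 47.2% (453.6 RPKM), and the widespread rows 19.6% (279.7 RPKM) and 31.5% (302.5 RPKM). The neural share was thus higher in the cavefish although the neural sum was lower there. These shares do not depend on how the libraries were scaled to each other. Among the 10 most abundant junction rows 6 were epithelial in the surface species, against 2 in the cave species. Both the shares and these counts include 12 epithelial rows under 5 RPKM in the cavefish and 6 neural rows under 5 RPKM in the surface fish. Those rows came in through the other eye alone, EPCAM and plakophilin 1 among them. This selection bears on the shares and counts, and no share was computed for rows at 5 RPKM or more in both eyes.

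**Figure D2:**
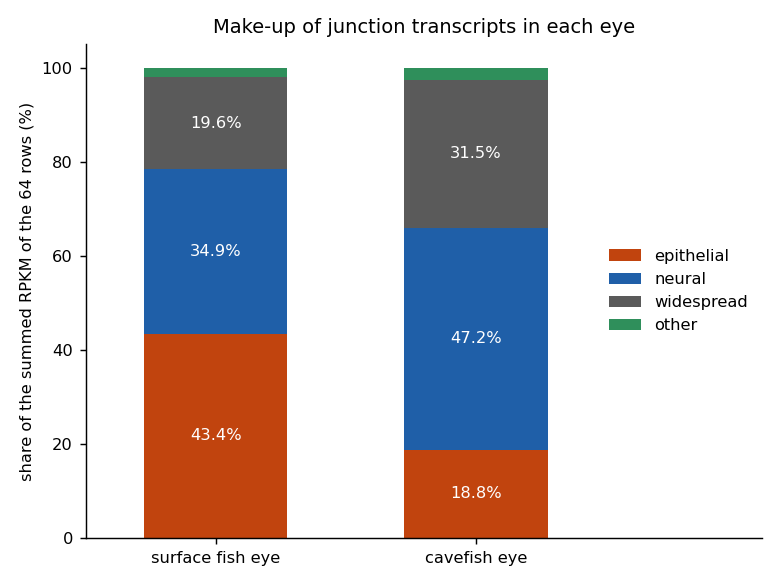
Share of the summed RPKM of the 64 junction rows held by each class (stacked bars, %), in the surface fish eye and the cavefish eye. The epithelial share is 43.4% in the surface fish and 18.8% in the cavefish. Rows that came in through a single eye are included.

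Desmosomal genes were lower in the cavefish eye almost throughout. Of 10 epithelial desmosome rows, 9 were at least 2-fold lower, against 10.1% of all rows. The summed level of all 10 was 368.3 RPKM in the surface species and 95.9 RPKM in the cave species. In the cavefish eye 5 of the 10, plakophilin 1 and plakophilin-3 among them, were under 5 RPKM and so came in through the surface fish eye alone. Of the 5 rows at 5 RPKM or more in both eyes, 4 were 2-fold lower. The cadherins that cross the gap between cells were modest in level. Desmoglein 4 stood at 12.3 RPKM in the surface species and at 1.56 RPKM in the cave species (log2 ratio -2.38). Desmoglein 2, the most widely used desmoglein of simple and basal epithelia, stood at 10.04 and 1.49 RPKM (-2.15). Desmocollin 2 like, the partner of the desmogleins, stood at 9.34 and 2.85 RPKM (-1.43). All 3 were under 5 RPKM in the cavefish eye.

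Desmoplakin, plakoglobin and periplakin, on the inner face of the desmosome, were more abundant than these cadherins, and their 4 rows were above 5 RPKM in both eyes. Desmoplakin, which links the plaque to keratin filaments, stood at 96.1 RPKM in the surface species and at 20.6 RPKM in the cave species (-2.17). The row named desmoplakin a stood at 31.3 and 10.2 RPKM (-1.52). Plakoglobin, a relative of beta-catenin that binds desmosomal and classical cadherins, stood at 90.9 and 29.7 RPKM (-1.58). These 3 rows were about 3 to 5 times lower in the cavefish eye, by RPKM ratios of 4.66, 3.05 and 3.06. Periplakin, a plakin of the desmosome and of the envelope of surface cells, stood at 56.7 and 17.4 RPKM (-1.65).

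Plakophilins, which cluster desmoplakin at the plaque, differed from each other. Plakophilin 1, found in stratified epithelia and lost in a human skin fragility syndrome, had the lowest ratio of all 64 rows. It stood at 42.0 RPKM in the surface species and at 1.92 RPKM in the cave species (log2 ratio -3.88). For plakophilin 3, which is found in most epithelia, 2 rows gave different results. The row named plakophilin-3 stood at 9.91 and 1.75 RPKM (-1.99), and the row named plakophilin 3a at 9.69 and 8.32 RPKM (-0.20), close to equal in both eyes. No source used here says how reads were divided between related rows. Plakophilin 4, which occurs at adherens junctions of many cells, stood at 6.39 and 3.94 RPKM (-0.58). Kazrin, a periplakin-binding protein, stood at 9.24 and 9.5 RPKM (0.04), almost the same in both eyes although periplakin was lower in the cavefish.

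EPCAM, an adhesion protein of epithelial cells that binds claudin 7 in mammals, had 74.1 RPKM in the surface species, at rank 5 of the 64 rows. In the cavefish eye it stood at 4.46 RPKM, at rank 50 of the 64 rows, with a log2 ratio of -3.78. Among the junction rows only plakophilin 1 had a lower ratio, and both genes came in through the surface fish eye alone.

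Most strand genes of epithelial tight junctions were lower in the cavefish eye. Each of the lower ones was under 5 RPKM there and so came in through the surface fish eye alone. Claudins 3 and 7, which seal the space between epithelial cells, and the teleost claudins e and i were all lower there by 2-fold or more. Claudin 3 stood at 36.1 and 3.67 RPKM (-2.99), and claudin 7b at 12.7 and 1.4 RPKM (-2.52). Claudin e stood at 5.98 and 1.05 RPKM (-1.77), and claudin i at 7.74 and 1.16 RPKM (-2.02), so that these were the lowest cavefish levels of all 64 rows. Occludin a, a membrane protein of the same strands, stood at 9.0 and 1.96 RPKM (-1.76). Claudin 2, which in mammals forms a cation channel in leaky epithelia, was the only epithelial row with a higher cavefish value, at 8.78 and 13.1 RPKM (0.53). It was also the only one of these strand rows at 5 RPKM or more in both eyes.

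Claudins of other cells lay within 2-fold. Claudin 5, the main claudin of endothelial cells at the blood-brain and blood-retina barriers, had 2 rows. Claudin 5a stood at 9.29 RPKM in the surface species and at 8.88 RPKM in the cave species (-0.06), and claudin 5b at 8.85 and 4.03 RPKM (-0.97). Claudin 5b thus lay just inside 2-fold, and with a pseudocount of 0.1 its ratio was -1.12. Claudin 12 stood at 2.89 and 5.19 RPKM (0.67) and was in the tables through the cavefish eye alone. Claudin domain containing 1, a claudin-like membrane protein, stood at 32.05 and 23.3 RPKM (-0.44).

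The scaffolds under the tight junction differed less between the eyes than most of its strand genes did. Each lower strand gene came in through the surface fish eye alone, while the scaffold rows were above 5 RPKM in both eyes. This selection favours low ratios among the strand genes, so no conclusion is drawn from the contrast. Claudin 2, the strand row at 5 RPKM or more in both eyes, had a ratio of 0.53. Tight junction protein 1 (ZO-1), which also serves adherens junctions of the retina and pigment epithelium, stood at 36.2 RPKM in the surface species and at 44.9 RPKM in the cave species (0.30). Of the ZO-2 paralogs, tight junction protein 2b stood at 72.9 and 46.1 RPKM (-0.65) and tight junction protein 2a at 16.2 and 7.58 RPKM (-1.01). The 2a row was at the 2-fold limit and came inside it with each of 4 other scalings, at -0.73 to -0.77. Within each eye, ZO-2b was 2.01 times as abundant as ZO-1 in the surface fish and 1.03 times in the cavefish. The rows for tight junction associated protein 1 differed from each other, at 9.86 and 7.56 RPKM (-0.34) for the peripheral form and at 12.3 and 5.06 RPKM (-1.13) for isoform b. The isoform b row was the only widespread row past 2-fold, and with the 4 other scalings it came inside, at -0.86 to -0.93.

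**Figure D3:**
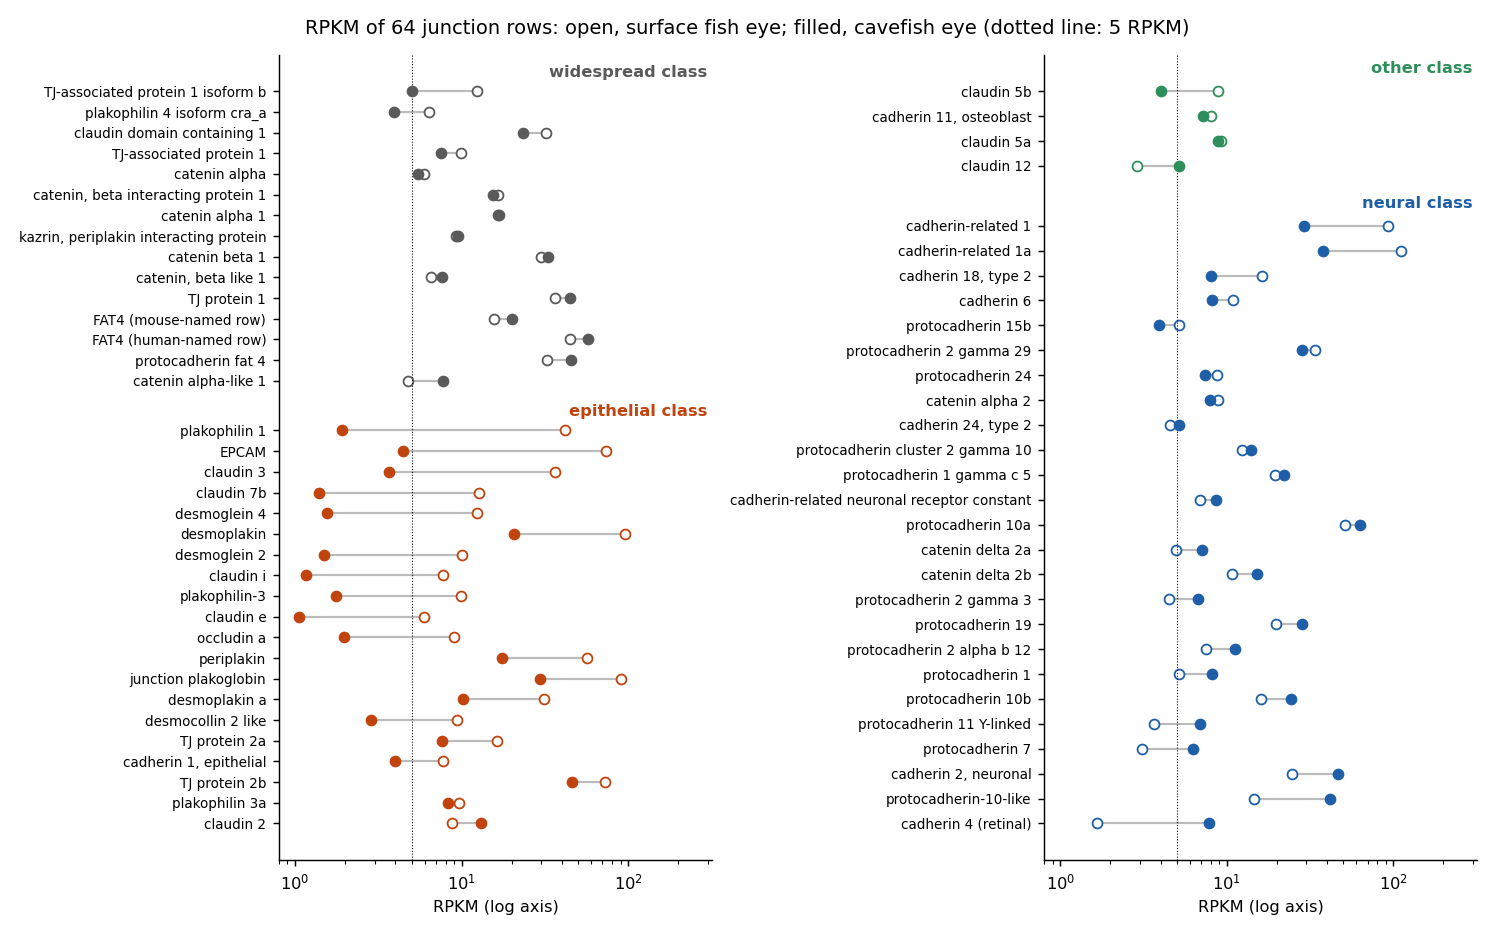
RPKM (log axis) of each of the 64 junction rows in the surface fish eye (open circles) and the cavefish eye (filled circles), by class, with a dotted line at 5 RPKM. On the deposited scale drawn, 19 of 20 filled circles of the epithelial class lie left of the open ones (plakophilin 3a lies right with the 4 other scalings), and in the neural class 17 of 25 lie right of them.

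Among the classical cadherins of the adherens junction, the epithelial cadherin 1 had the lower value in the cavefish eye but lay within 2-fold. The neural ones did not share a direction, and few passed 2-fold. Cadherin 1 (E-cadherin), the cadherin of epithelia, stood at 7.73 RPKM in the surface species and at 3.97 RPKM in the cave species (log2 ratio -0.81). With the 4 other scalings its ratio was -0.54 to -0.59, and 6634 of all 9649 rows had the lower value in the cavefish. E-cadherin was under 5 RPKM in the cavefish eye and so came in through the surface fish eye alone. Cadherin 2 (N-cadherin), which joins cells of the neural retina and of the lens, stood at 24.6 and 46.5 RPKM (0.89) and ranked 18 among junction rows in the surface species and 3 in the cave species. With the 4 other scalings its ratio was 1.16 to 1.21 and thus past 2-fold. Within each eye, N-cadherin was 3.18 times as abundant as E-cadherin in the surface fish and 11.7 times in the cavefish. Cadherin 4 (R-cadherin), named for the retina, had the highest ratio of the 64 rows. It stood at 1.67 RPKM in the surface fish, the lowest junction level of that eye, and 7.87 RPKM in the cavefish (1.73). It is in the tables through the cavefish eye alone, and with a pseudocount of 5 its ratio was 0.95.

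The type II cadherins and the mesenchymal cadherin lay within 2-fold. Cadherin 18, a cadherin of neurons, stood at 16.4 and 8.06 RPKM (-0.94), just inside 2-fold, and a pseudocount of 0.1 brought it to -1.01. Cadherin 6 stood at 10.9 and 8.11 RPKM (-0.38) and cadherin 24 at 4.59 and 5.14 RPKM (0.14). Cadherin 11, named for osteoblasts and made by mesenchymal cells, stood at 8.08 and 7.21 RPKM (-0.15).

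Catenins are adaptors between cadherins and actin. Rows with catenin in their name showed little difference, and they include catenin-binding and catenin-like proteins matched by name alone. None of the 9 rows was past 2-fold, against 10.1% of all rows lower and 3.83% higher. For so few rows this count is near the share of all rows. Their ratios ran from -0.14 to 0.60 with a median of 0.13. Beta-catenin, which also acts as a co-activator in Wnt signalling, stood at 30.01 RPKM in the surface species and at 33.0 RPKM in the cave species (0.13). Alpha-catenin 1 stood at 16.9 and 16.6 RPKM (-0.02), and its neural form alpha-catenin 2 at 8.81 and 7.90 RPKM (-0.14). The neural delta-catenins 2a and 2b had 4.97 and 7.14 RPKM (0.45) for 2a, and 10.8 and 15.1 RPKM (0.45) for 2b. Plakoglobin, the closest relative of beta-catenin, was thus 3.03 times as abundant as beta-catenin in the surface fish eye and 0.900 times as abundant in the cavefish eye. This ratio within an eye is free of the scaling between the libraries. The other catenin rows were the beta-catenin interacting protein (16.5 and 15.5 RPKM), beta-catenin like 1 (6.55 and 7.59 RPKM), alpha-catenin like 1 (4.75 and 7.71 RPKM) and a row named alpha without a number (5.95 and 5.47 RPKM).

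The photoreceptor cadherin was the exception among neural members. CDHR1, whose loss causes retinal dystrophy in humans, was listed on 2 rows, and these were the only neural rows lower in the cavefish eye by 2-fold or more. The row named cadherin-related family member 1a stood at 110.7 RPKM in the surface fish, the highest junction level of that eye, and 37.9 RPKM in the cavefish (-1.52). The row named cadherin-related family member 1 stood at 92.9 and 29.1 RPKM (-1.64). The rod pigment rhodopsin stood at 14606 and 4884 RPKM (-1.58). Per unit of rhodopsin the 1a row was the same to within a few percent in both eyes, at 0.758% of the rhodopsin level in the surface fish and 0.775% in the cavefish, and the other row stood at 0.636% and 0.595%. Rhodopsin was the only photoreceptor gene used as a denominator, and photoreceptor genes with other ratios would give other proportions. All 6 rows of a photoreceptor list (rhodopsin, rod and cone transducin alpha and the arrestins) were lower by 2-fold or more, against 10.1% of all rows. Their ratios ran from -1.77 to -1.04 with a median of -1.66. Their summed level was 18918 RPKM in the surface species and 6199 RPKM in the cave species. After centring, 5 of the 6 were 2-fold lower, against 5.55% of all rows. The exception was arrestin 3b, at 57.15 and 27.3 RPKM (-1.04, or -0.77 after centring). Rod transducin alpha (alpha transducing activity polypeptide 1) stood at 2542 and 759.7 RPKM (-1.74), arrestin 3a at 664.4 and 194.0 RPKM (-1.77) and the S-antigen arrestin a at 625.9 and 207.9 RPKM (-1.59). Their part in the CDHR1 result was not tested. In bulk tissue, fewer cells of a type and less RNA per cell cannot be told apart. Protocadherin 15b, a cadherin of hair cell tip links that photoreceptors also make, stood at 5.20 and 3.91 RPKM (-0.34).

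Protocadherins, which mark neurons for recognition and sorting, were mostly higher in the cavefish eye, by small ratios. Of 14 rows, protocadherin 15b not counted, 12 had the higher value in the cavefish, against 3009 of all 9649 rows. Only 1 of them was 2-fold higher, against 3.83% of all rows, and the median was 0.48. In the surface fish eye 3 of the 14 were under 5 RPKM and so came in through the cavefish eye alone. The 11 at 5 RPKM or more in both eyes had a median of 0.30. All 14 lay above the median of all rows, also those named protocadherin 24 and protocadherin 2 gamma 29, whose deposited values were lower in the cavefish. Protocadherin 10a, the most abundant junction row of the cavefish eye, stood at 51.3 RPKM in the surface species and at 63.3 RPKM in the cave species (0.30). Protocadherin 10b stood at 16.1 and 24.4 RPKM (0.57). A further row, named protocadherin-10-like, stood at 14.5 and 41.5 RPKM, a ratio of 1.45, the largest of the family. It was the only neural row 2-fold higher among those at 5 RPKM or more in both eyes. Protocadherin 19, a delta-protocadherin that works together with N-cadherin in zebrafish, stood at 19.8 and 28.1 RPKM (0.49).

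The remaining protocadherin rows all lay within 2-fold on the deposited scale. Protocadherin 1 stood at 5.20 and 8.12 RPKM (0.56), protocadherin 7 at 3.08 and 6.23 RPKM (0.83), and the row named protocadherin 11 Y-linked at 3.64 and 6.91 RPKM (0.77). The last 2 were under 5 RPKM in the surface fish, and they were past 2-fold with ratios centred on the median, at 1.10 and 1.04. The 6 rows of the clustered alpha and gamma families, which neurons combine into surface codes, ranged from -0.25 for protocadherin 2 gamma 29 (33.7 and 28.2 RPKM) to 0.53 for protocadherin 2 alpha b 12 (7.48 and 11.3 RPKM). Members of these clusters are close in sequence, so their single values are less certain. Protocadherin 24 stood at 8.74 and 7.42 RPKM (-0.21). It was placed with the neural class by its family name, although the same human gene is also called CDHR2, a cadherin of the intestinal brush border.

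FAT4, a giant cadherin of planar polarity and growth control, was listed on 3 rows, which may be parts or copies of the same gene. Their surface fish levels were 44.8, 32.6 and 15.7 RPKM and their cavefish levels 57.2, 45.3 and 19.96 RPKM, with ratios of 0.35, 0.46 and 0.33. All 3 rows had the higher value in the cavefish eye and none was past 2-fold.

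Markers of the surface epithelium of the eye moved with the epithelial junction genes. All 8 rows of a cornea and skin list were lower in the cavefish eye by 2-fold or more, against 10.1% of all rows. Their median was -2.35, and their summed level was 1013 RPKM in the surface species and 129.0 RPKM in the cave species. Of the 8 rows, 4 were under 5 RPKM in the cavefish eye and so came in through the surface fish eye alone. The other 4 were at 5 RPKM or more in both eyes, with a median of -2.29. Keratin 5, a basal cell filament protein, had 660.2 and 53.3 RPKM (-3.61), keratin 4 had 143.4 and 22.4 RPKM (-2.63), aquaporin 3a had 120.7 and 36.3 RPKM (-1.71) and keratin 15 had 53.99 and 13.1 RPKM (-1.96). Tumor protein p63, the transcription factor of stratified epithelia, stood at 6.54 and 1.0 RPKM (-1.91), and grainyhead-like 1 at 5.28 and 0.23 RPKM (-2.35). None of all 9649 rows was at 0 in either eye, so a value above 0 says nothing particular about these markers. The list held 8 genes or families, of which 7 were matched, and elf3 had no row. The part of the amount of surface epithelium in the junction result was not tested.

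Set against keratin 5 within each eye, the junction genes did not keep a fixed proportion. EPCAM stood at 11.2% of the keratin 5 level in the surface fish and 8.37% in the cavefish, and plakophilin 1 at 6.36% and 3.60%. Desmoplakin stood at 14.6% and 38.8%, plakoglobin at 13.8% and 55.8%, and periplakin at 8.59% and 32.7%. By RPKM, EPCAM and plakophilin 1 thus differed between the eyes by more than keratin 5 did, and the 3 abundant plaque genes by less. At 4.46 and 1.92 RPKM in the cavefish eye, EPCAM and plakophilin 1 came in through the surface fish eye alone. Their log2 ratios of -3.78 and -3.88 lay close to the -3.61 of keratin 5. With a pseudocount of 5 they were -3.06 and -2.76. Keratin 5 was not computed at that setting, but at 660.2 and 53.3 RPKM its ratio moves less with the pseudocount. The order of these genes therefore depends on the pseudocount. Keratin 8, of simple epithelia, stood at 98.2 and 90.9 RPKM (-0.11), and the pigment epithelium gene rpe65a at 207.6 and 176.8 RPKM (-0.23), both within 2-fold.

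Partners of the junctions outside the naming rule were mixed. Of a list of 28 junction and polarity genes or families 23 were matched, on 55 rows, of which 10 (18.2%) were at least 2-fold lower and 1 (1.82%) was higher, against 10.1% and 3.83% of all rows. After centring, 6 of the 55 were lower, against 5.55% of all rows. The list's median of -0.29 was close to that of all rows. The rows past 2-fold with the largest values were the synaptic scaffold discs large 4 (152.7 and 69.3 RPKM, -1.13), which was also the most abundant of the list, lin-7 B (35.05 and 14.5 RPKM, -1.22), membrane protein palmitoylated 6a (31.5 and 13.8 RPKM, -1.14) and the actin-binding protein LIM domain and actin binding 1 (27.4 and 10.6 RPKM, -1.30). The first 3 act at synapses and cell polarity complexes, and all 3 came inside 2-fold with ratios centred on the median, at -0.86, -0.95 and -0.87.

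The hemidesmosome ties basal epithelial cells to the basement membrane. The collagen and integrin genes listed for it were lower in the cavefish eye by 2-fold or more on all 3 rows, against 10.1% of all rows. All 3 were under 5 RPKM in the cavefish eye and so came in through the surface fish eye alone. They were picked from the partner list after their values had been seen, so their count is no result about the hemidesmosome. The rows for plectin and dystonin, also among the partners, lay within 2-fold. Collagen XVII alpha 1b stood at 13.3 RPKM in the surface species and at 1.2 RPKM in the cave species (-2.70), integrin beta 4 at 18.2 and 4.88 RPKM (-1.71), and integrin alpha 6b at 13.3 and 4.63 RPKM (-1.34). F11 receptor, the junctional adhesion molecule of epithelia, stood at 6.89 and 1.77 RPKM (-1.51) and also came in through the surface fish eye alone. Junctional adhesion molecule 3b stood at 16.5 and 16.2 RPKM (-0.02). Plectin, a cytolinker found in many tissues, had rows that differed from each other. The row named plectin stood at 91.0 and 99.9 RPKM (0.13). The other, named as a plectin intermediate filament binding protein, stood at 17.3 and 8.19 RPKM (-0.997), just inside 2-fold. Dystonin, a plakin of the hemidesmosome and of neurons, was within 2-fold on both of its rows, at 15.06 and 15.63 RPKM and at 5.95 and 5.98 RPKM. Crumbs genes, apical polarity proteins of photoreceptors and Mueller glia, were within 2-fold on all 4 rows, with ratios from -0.98 for crumbs 2a to -0.78 for crumbs 2b. Par-3 B was the only partner 2-fold higher, at 4.06 and 9.31 RPKM (1.03).

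Neural adhesion genes outside the cadherin family were set beside the neural members. Of 22 rows 2 (9.09%) were at least 2-fold lower and 1 (4.55%) was higher, near the 10.1% and 3.83% of all rows, and the median was 0.10. Neurexin 3a, the most abundant, stood at 53.4 and 50.1 RPKM (-0.09). The rows past 2-fold were neurexin 1b (1.53 and 11.9 RPKM, 2.35), neuroplastin b (40.4 and 16.7 RPKM, -1.22) and a row named neural cell adhesion molecule 1-a precursor (8.57 and 1.32 RPKM, -2.04). Another row, neural cell adhesion molecule 1a, stood at 17.2 and 24.6 RPKM (0.49). Of 6 endothelial rows 2 were 2-fold lower, EGF-like-domain multiple 7 (174.3 and 23.6 RPKM, -2.83) and endothelium-specific receptor tyrosine kinase 2 (12.99 and 4.41 RPKM, -1.37), with a median of -0.60. Their part in the claudin 5b value was not tested. Lens crystallins had a median of 1.06 over 29 rows with 15 at least 2-fold higher, and muscle genes a median of 1.07 over 18 rows with 10 higher; none of either list was 2-fold lower. Gamma S1, the most abundant crystallin, stood at 4046 and 3107 RPKM (-0.38). The crystallins past 2-fold with the largest values were beta B1 like 2 (989.7 and 2230 RPKM, 1.17), beta B1 (488.1 and 1085 RPKM, 1.15), beta B1 like 1 (252.8 and 604.0 RPKM, 1.25) and alpha B a (173.1 and 376.8 RPKM, 1.12). Those of muscle were creatine kinase b (175.2 and 727.6 RPKM, 2.05) and a (215.1 and 453.7 RPKM, 1.07), myosin light polypeptide 2 (130.6 and 285.8 RPKM, 1.12) and troponin C type 2 (103.1 and 218.1 RPKM, 1.07). The part of the lens in the N-cadherin value was not tested.

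**Figure D4:**
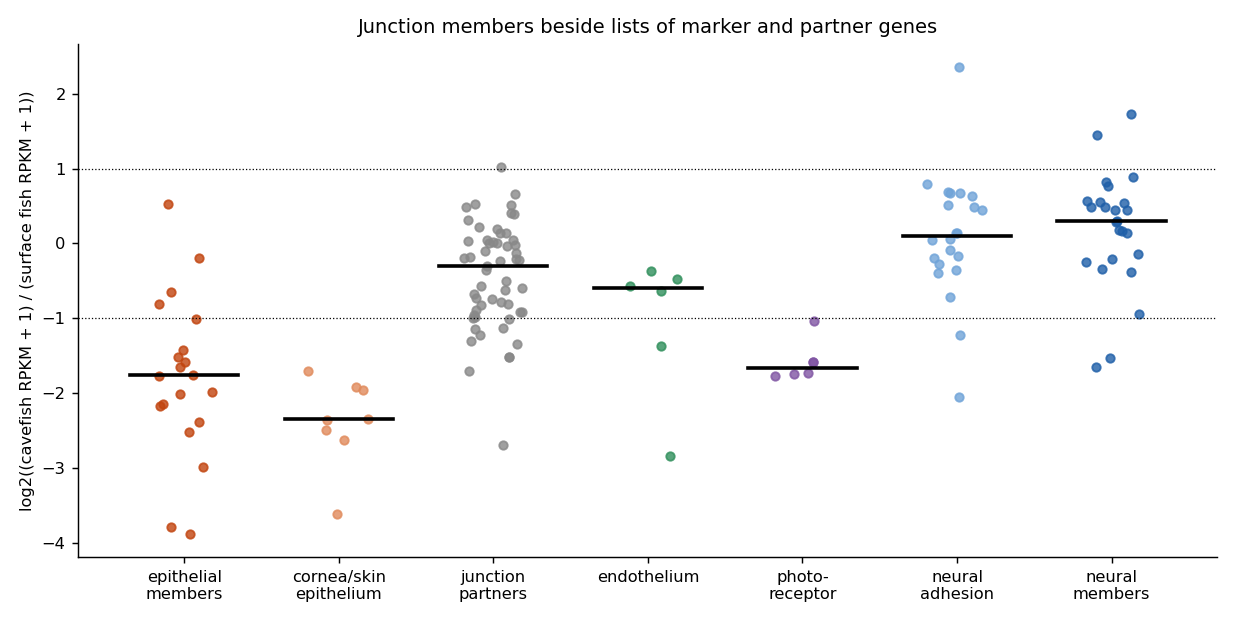
Log2 ratio of cavefish to surface fish eye for the epithelial and neural junction rows and for 5 lists of marker and partner genes (points are rows, black bars medians, dotted lines 2-fold). The cornea and skin list has a median of -2.35 beside -1.76 for the epithelial members, and the neural adhesion list 0.10 beside 0.30 for the neural members.

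The contrast of the classes kept its direction under the other processing choices. The epithelial median ran from -2.18 with a pseudocount of 0.1 to -1.18 with a pseudocount of 5, and stayed past 2-fold under each setting drawn. The neural median ran from 0.23 among rows at 5 RPKM or more in both eyes to 0.61 with quantile normalization. Without protocadherins it was -0.14 over 11 rows on the deposited scale and 0.13 after centring on the median of all rows, so its sign there depends on the scaling. Of the 16 epithelial rows past 2-fold, 15 stayed past it with each of the 4 other scalings, the exception being tight junction protein 2a.

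**Figure D5:**
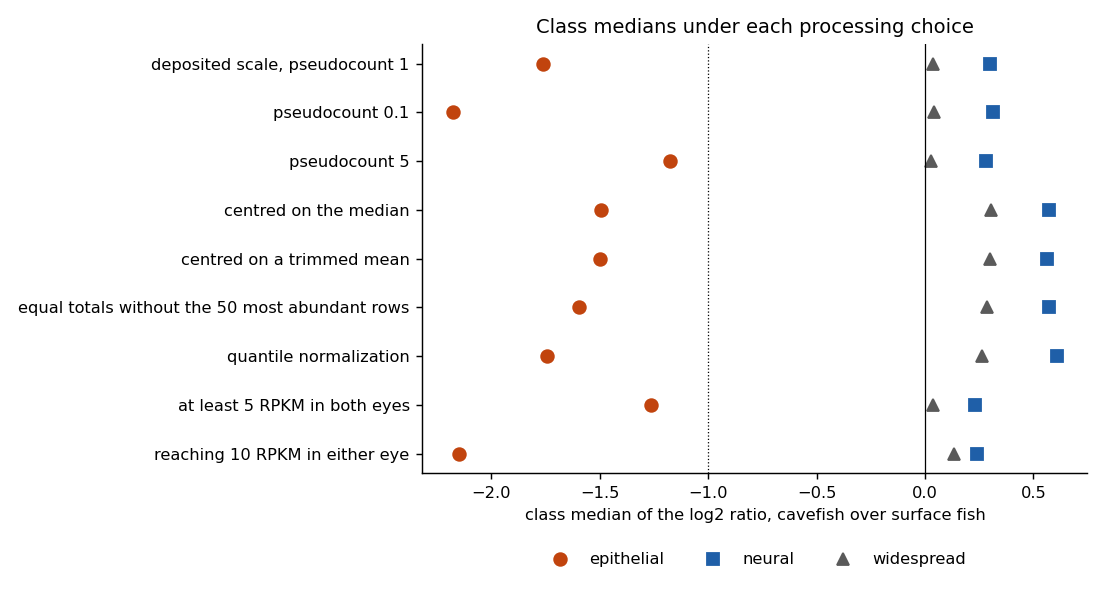
Median log2 ratio of the epithelial, neural and widespread classes (symbols) under each processing choice (rows), with a dotted line at 2-fold lower. The epithelial median lies between -2.18 and -1.18 and the neural median between 0.23 and 0.61.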

How the data were processed

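Per the labels' protocols, total RNA of whole adult eyes was extracted with TRIzol, polyadenylated RNA was selected, and paired-end Illumina libraries were sequenced. The authors deposited RPKM values, per the file headers, for 9649 rows in each of 2 eye tables with the same row names. The submitters' processing notes list Bowtie 0.12.2 without its role. For the reference, transcript lengths, reads matching several rows and depth, the sources used here state nothing, and whole reads could not be recovered. Each column was assigned by the fish its header names.

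Every row was kept as a separate feature; no member name occurred more than once. The pseudocount was 1. No test was run, since each group had 1 library. The members, classes and lists were chosen with earlier results of these data known. List patterns were narrowed after row names had been seen, to drop false matches. Values are given for members past 2-fold, the most abundant of each class, set cadherins, catenins and ZO-1, and the remaining members. Of each other list the 4 rows past 2-fold with the largest higher value and the most abundant row are named. Rows named after their values were seen were tumor protein p63, grainyhead-like 1, keratin 8, rpe65a, collagen XVII, the integrins, F11 receptor, junctional adhesion molecule 3b, plectin, dystonin, crumbs, par-3 B and neural cell adhesion molecule 1a, and those of the closing observations. Alternatives were pseudocounts of 0.1 and 5, centring on the median or on a mean trimmed by 30% at each end, equal totals without the 50 most abundant rows of either library, quantile normalization, minimum levels of 5 RPKM in both eyes or 10 RPKM in either, a 4-fold threshold, and other class boundaries; moving protocadherin 24, leaving out CDHR1 and counting 1 row per gene were chosen after seeing the data. The computation was tested on simulated data. Python 3.11.15, numpy 2.4.6, pandas 2.3.3 and matplotlib 3.10.9 were used.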

Additional observations from a re-analysis of the deposited data

How the results depend on the processing

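No paired analysis was possible because each species had 1 eye library, and no replicate could be left out. No result changed direction past 2-fold. Of the 64 members, 19 (29.7%) were lower and 2 (3.1%) were higher past 2-fold on the deposited scale. Of all rows 10.1% were lower and 3.83% higher. Of the 41 members at 5 RPKM or more in both eyes, 8 were lower and 1 was higher, against 8.77% and 2.32% of all such rows. At 4-fold 8 were lower and 0 higher, against 1.29% and 0.601% of all rows. Only 1 was higher with a pseudocount of 5, with a minimum of 10 RPKM in either eye and with 1 row per gene (chosen after seeing the data). With centring on the median or trimmed mean and with equal totals 5 were higher. Centring on the median put 6.71% of all rows there. The counts of higher members were near the shares given for all rows. The 16 lower epithelial rows became 5 among rows at 5 RPKM or more in both eyes and 8 at 4-fold. The first of these settings leaves out the 12 epithelial rows that came in through the surface fish eye alone. Of the 8 rows left, 5 were lower, with a median of -1.26. The count at 4-fold follows from the stricter threshold. For the neural class the 2 higher rows became 5 with both centrings and equal totals, 1 with a pseudocount of 5, with either minimum level, without protocadherins and with 1 row per gene, and 0 at 4-fold; the 2 lower rows became 0 at 4-fold, 0 without CDHR1 (left out after seeing that these were the 2 lower rows, so the count was fixed by the choice) and 1 with 1 row per gene; and its median was -0.14 without protocadherins. The 1 lower widespread row was 0 with a pseudocount of 5 and with each of the 4 other scalings. For endothelial, mesenchymal and other members, 1 was lower with a pseudocount of 0.1, and the median of -0.10 was 0.17, 0.16, 0.14 and 0.10 with the 4 other scalings. The partner list had 10 rows lower and 1 higher; this was 5 and 0 with a pseudocount of 5 and among rows at 5 RPKM in both eyes, 6 lower with each of the 4 other scalings, and 0 higher with a minimum of 10 RPKM. The cause was not tested where neither fewer rows nor the threshold accounts for a change. Summing rows of the same name changed no member. Depth is unknown, so low values carry an unmeasured error.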

Other observations

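Genes outside the junction vocabulary that act on cadherins or mark neighbouring cells had the following values; they were chosen after their values had been seen. The metalloproteases ADAM10a and ADAM10b, which cut E- and N-cadherin at the cell surface in mammals, had 36.8 and 20.5 RPKM in the surface fish eye but 11.9 and 7.38 RPKM in the cavefish eye (-1.55 and -1.36). The rows for the endothelial cell adhesion molecule had 10.5 and 3.16 RPKM, surface fish first (-1.46), and 7.31 and 3.23 RPKM (-0.97). The synaptic cell adhesion molecules 1a and 2a were past 2-fold in the other direction, with 9.75 and 21.6 RPKM (1.07) and 3.69 and 10.3 RPKM (1.26). The more abundant cell adhesion molecule 3 stood at 79.5 and 56.8 RPKM (-0.48).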
